A study of Homo sapiens with 6 samples.

Results

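The signal peptidase and translocon subunit genes are 10 genes whose products carry new proteins into the endoplasmic reticulum and trim them there. They were taken by symbol from the deposited count table: SEC11A, SEC11C, SPCS1, SPCS2 and SPCS3 for signal peptidase, SEC61A1, SEC61B and SEC61G for the Sec61 channel, and SSR2 and SSR4 for the translocon-associated protein complex (TRAP). All 10 were found among 65746 genes and all 10 passed the filter on low counts, among 11525 genes tested. They were chosen with the contrast between beta-sitosterol and DMSO cells known. Their fold changes are therefore a description here, without p-values. A gene is said to be called where its Benjamini-Hochberg adjusted p in edgeR's quasi-likelihood fit of all genes was under 0.05.

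The cells were SU-DHL-8, a line of diffuse large B-cell lymphoma with the genotype given as WT. In the first group, 3 libraries came from cells given 15 µM beta-sitosterol (β-ST), a plant sterol close to cholesterol, for 24 h. The other 3 came from cells given DMSO, the solvent, for 24 h. Both groups are 1 cell line in RPMI medium with serum, and the labels speak of replicate experiments without saying whether the cultures were separate, so the spread between libraries may be partly technical.

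Many proteins bound for secretion, for membranes or for the ER itself start with a signal peptide that is read as the ribosome works. The ribosome docks on the Sec61 channel, through which the growing chain passes, and TRAP sits beside the channel and helps some chains to enter. Signal peptidase then cuts the signal peptide off. Cells of the B lineage use this route for immunoglobulin, for surface receptors and for the proteins of antigen presentation.

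Treated libraries held 29359951, 26453101 and 27839421 counts, and DMSO libraries 33536498, 31314104 and 35565163 counts. Levels are CPM, the usual depth-scaled counts, after TMM scaling, so they are shares of a library. Neither the amount of RNA per cell nor the number of cells can be read from them. DMSO replicate 2 stood apart: its log2 CPM correlated across genes at 0.982 and 0.972 with the other DMSO libraries, against 0.991 between those, and results whose call turned on it are given with and without it. The 6 B cell markers summed to between 2236 and 2403 CPM in treated libraries and between 1772 and 2468 CPM in DMSO libraries. The 4 T cell markers summed to 0 CPM in every treated library and to at most 0.063 CPM in DMSO libraries, with CD3E, CD3G and CD2 at 0. The 4 myeloid markers summed to 6.35 to 8.47 CPM in treated and 5.18 to 7.28 CPM in DMSO libraries, mostly from LYZ.

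Of the 10 subunit genes, 6 were called higher after beta-sitosterol and 0 lower, where 19.0% of all tested genes were called higher and 21.8% lower. The treated values lay wholly above the DMSO values for 8 of the 10 and wholly below for 0, against 27.0% and 29.1% of tested genes. Without DMSO replicate 2, 8 were called higher and 1 lower, where 26.4% of tested genes were called higher, 30.3% lower and 56.6% either way. The median log2 fold change was 0.91 over the 10 genes and -0.04 over all genes tested. Since the genes were chosen on this contrast, these shares describe the choice. The subunits of 1 complex moved unevenly: within each complex at least 1 subunit was called higher and at least 1 was not.

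The 250 bases before the start are given as sequence context for 4 genes: the paralogous catalytic subunits SEC11C and SEC11A, both called higher but by unequal amounts, and the channel subunits SEC61G, called higher, and SEC61A1, not called. They are from RefSeq on GRCh38.p14, 5′ to 3′ on the gene's strand: SEC11C at chr18:59139634-59139883 (+), SEC11A at chr15:84716140-84716389 (-), SEC61G at chr7:54759212-54759461 (-), and SEC61A1 at chr3:128052187-128052436 (+), the second of 2 listed starts. Capitals mark matches on either strand to the CCAAT box or to the E-box CACGTG.
SEC11C: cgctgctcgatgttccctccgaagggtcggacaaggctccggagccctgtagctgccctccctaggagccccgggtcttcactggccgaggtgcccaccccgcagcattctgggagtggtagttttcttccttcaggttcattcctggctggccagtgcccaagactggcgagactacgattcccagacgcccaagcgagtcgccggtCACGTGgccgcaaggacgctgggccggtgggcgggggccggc
SEC11A: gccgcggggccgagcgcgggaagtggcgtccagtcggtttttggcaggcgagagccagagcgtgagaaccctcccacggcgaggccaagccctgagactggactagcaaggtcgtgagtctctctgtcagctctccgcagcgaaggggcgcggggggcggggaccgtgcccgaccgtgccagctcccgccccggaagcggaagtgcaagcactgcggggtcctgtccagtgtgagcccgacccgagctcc
SEC61G: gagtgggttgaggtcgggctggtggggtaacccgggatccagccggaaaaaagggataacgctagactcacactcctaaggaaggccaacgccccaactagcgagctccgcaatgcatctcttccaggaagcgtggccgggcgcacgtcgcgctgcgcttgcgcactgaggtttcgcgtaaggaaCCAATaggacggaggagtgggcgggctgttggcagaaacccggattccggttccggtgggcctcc
SEC61A1: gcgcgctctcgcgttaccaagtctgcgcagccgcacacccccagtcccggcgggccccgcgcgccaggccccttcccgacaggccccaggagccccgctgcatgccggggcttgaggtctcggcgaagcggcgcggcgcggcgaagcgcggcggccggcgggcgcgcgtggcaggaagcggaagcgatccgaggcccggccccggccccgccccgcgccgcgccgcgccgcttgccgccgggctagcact
SEC11C holds 1 E-box, 42 bases before its start, and SEC61G holds 1 CCAAT box, 65 bases before its start. SEC11A and SEC61A1 show neither in these letters. G and C make up 66.8% of the bases shown for SEC11C, 70.4% for SEC11A, 62.4% for SEC61G and 80.8% for SEC61A1.

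Of the 10 genes, 9 had a promoter window in the RefSeq table, 11 windows of 300 bases in all (250 before the start and 50 after), and 6 motifs were searched on both strands. The ER stress response elements ERSE and ERSE-II were in 0 of the 9 genes and in 0.08% and 0.05% of all 35116 windows. The unfolded protein response element TGACGTGG was in 1 of the 9, SSR4, and in 0.73% of windows. The sterol regulatory element TCACNCCAC was in 0 of the 9 and in 1.13% of windows. CCAAT, which is also the first part of ERSE, was in SPCS2, SPCS3, SEC61B, SEC61G, SSR2 and SSR4 and in 34.61% of windows. A gene was counted where any of its windows matched, while the percentages are per window, so the units are not alike. CACGTG was in SEC11C alone among the 9 and in 7.26% of windows.

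SEC11C and SEC11A encode alternative catalytic subunits of signal peptidase, the serine proteases that make the cut. SEC11C (ENSG00000166562, GRCh38.p14 chromosome 18, 59139884 to 59158832) had 124, 139 and 139 CPM in treated libraries, against 34.6, 38.3 and 30.4 CPM in DMSO libraries. All 3 treated values were more than 3 times the highest DMSO value. It averaged 134 ± 8.62 CPM in treated cells and 34.4 ± 3.985 CPM in DMSO cells (SD, n = 3 each), a log2 fold change of 1.96 ± 0.13 (SE) or 3.89-fold. SEC11A (ENSG00000140612, chromosome 15, 84669544 to 84716139) had 137, 146 and 134 CPM in treated libraries, against 87.8, 62.1 and 79.8 CPM in DMSO libraries. Its groups did not overlap either, and its log2 fold change was 0.86 ± 0.15, or 1.81-fold. Both were called higher, with every count-based alternative and every library left out in turn.

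The balance between the catalytic subunits can be read within each library from the authors' deposited TPM, which are per length and whose library scaling cancels in a ratio. SEC11C made up 61.6, 62.9 and 64.8% of the summed SEC11A and SEC11C TPM in treated libraries, against 41.2, 52.3 and 40.3% in DMSO libraries. By this measure SEC11C was above SEC11A in every treated library, and in DMSO libraries only in replicate 2. Which of the 2 is higher depends on the gene lengths the authors used, while the shift between groups does not. In CPM, SEC11C lay above SEC11A only in treated replicate 3. The ratio of SEC11C to SEC11A averaged 1.715 ± 0.12 in treated cells and 0.82 ± 0.24 in DMSO cells (SD, n = 3 each). The 2 paralogues shared no word of 50 bases: only 2 of the 2703 words of 50 bases in the annotated transcripts of SEC11C occur in those of any other gene, LYL1.

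SPCS1, SPCS2 and SPCS3 encode the accessory subunits. SPCS3 is required for cleavage. In yeast the counterpart of SPCS2 binds the channel, and that of SPCS1 helps to keep membrane spans from being cut. SPCS1 (ENSG00000114902, chromosome 3, 52706106 to 52711148) had 163, 158 and 154 CPM in treated libraries, against 79.2, 68.0 and 62.8 CPM in DMSO libraries. SPCS2 (ENSG00000118363, chromosome 11, 74949266 to 74979033) had 116.5, 122.9 and 115.6 CPM in treated libraries, against 61.0, 67.1 and 52.9 CPM in DMSO libraries. Neither gene's groups overlapped, both were called higher, and the log2 fold changes were 1.18 ± 0.13 for SPCS1 and 0.97 ± 0.13 for SPCS2 (SE).

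SPCS3 (ENSG00000129128, chromosome 4, 176319966 to 176332245) was not called. It had 73.8, 60.0 and 56.1 CPM in treated libraries, against 63.5, 56.0 and 41.2 CPM in DMSO libraries. The groups overlapped, treated replicate 1 being the highest and DMSO replicate 3 the lowest, and the log2 fold change was 0.24 ± 0.18 (SE). On log2(TPM + 1), where the median of all genes lay at -0.19, its change was -0.0034, which is 0.19 above that median. The ratio of SPCS1 to SPCS3 TPM was 2.08, 2.48 and 2.60 in treated libraries, against 1.18, 1.14 and 1.44 in DMSO libraries, with no overlap.

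**Figure D1:**
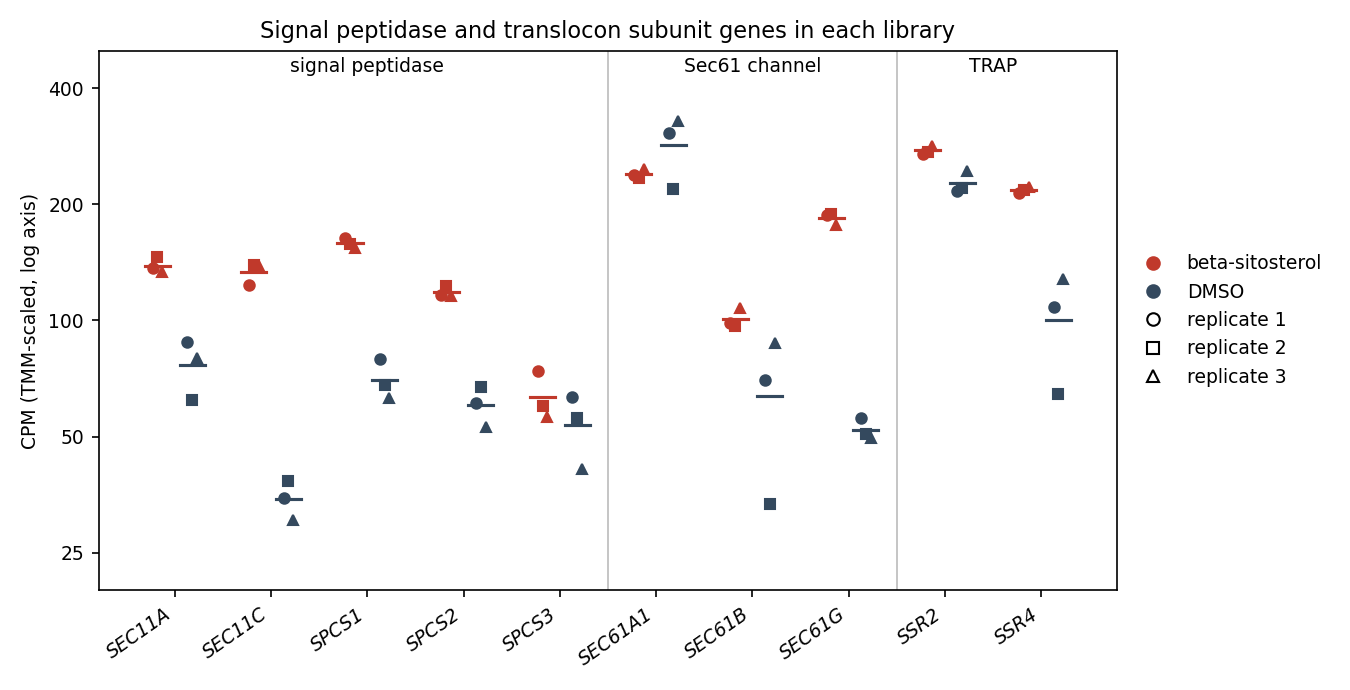
CPM (TMM-scaled, log axis) of each gene in each library, with beta-sitosterol in red at the left and DMSO in dark blue at the right of each pair; points are libraries, shaped by replicate, and bars are group means. SEC11C and SEC61G show the widest gaps, SPCS3 and SEC61A1 overlap between groups, and DMSO replicate 2 (squares) lies lowest for SEC61B and SSR4.

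The Sec61 channel is built from a large pore subunit, SEC61A1, and the small single-span subunits SEC61B and SEC61G. SEC61G (ENSG00000132432, chromosome 7, 54752253 to 54759211) had 187, 189 and 177 CPM in treated libraries, against 55.75, 50.8 and 49.5 CPM in DMSO libraries. The groups lay far apart and DMSO replicate 2 fell between its fellows. It averaged 184 ± 6.24 CPM in treated cells and 52.0 ± 3.29 CPM in DMSO cells (SD, n = 3 each), a log2 fold change of 1.825 ± 0.11 (SE) or 3.54-fold, and was called higher.

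SEC61B (ENSG00000106803, chromosome 9, 99222282 to 99230615) had 98.6, 96.8 and 107 CPM in treated libraries, against 70.0, 33.5 and 87.2 CPM in DMSO libraries. Treated values lay above all DMSO values, but the DMSO libraries spread with a coefficient of variation of 43.2%, against 5.6% among treated ones. The log2 fold change of 0.67 ± 0.295 (SE) was not called. Without DMSO replicate 2 it was 0.36 ± 0.11 and called, where 26.4% of genes tested were called higher. Without DMSO replicate 3 it was 1.01 and called too.

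SEC61A1 (ENSG00000058262, chromosome 3, 128051641 to 128071683) was the only one of the 10 with a lower mean CPM in treated cells. It had 238.5, 234 and 247 CPM in treated libraries, against 306, 219 and 328 CPM in DMSO libraries. The groups overlapped because DMSO replicate 2 lay below all treated libraries, and the log2 fold change of -0.245 ± 0.16 (SE) was not called. Without that library the change was -0.41 ± 0.08 and called lower, where 30.3% of genes tested were called lower.

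Set against each other in the same library, the channel subunits stood in different proportions in the groups. SEC61G had 2.35, 2.41 and 2.14 times the TPM of SEC61A1 in treated libraries, against 0.545, 0.69 and 0.45 times in DMSO libraries. In TPM the order of the pair was thus opposite in the groups, in all 6 libraries. In CPM SEC61G lay below SEC61A1 in every library. SEC61B had 3.05, 3.06 and 3.20 times the TPM of SEC61A1 in treated libraries, against 1.69, 1.13 and 1.96 times in DMSO libraries. In TPM SEC61G stayed below SEC61B in every library, at 0.769, 0.789 and 0.668 of its TPM in treated and 0.32, 0.61 and 0.23 in DMSO libraries. In CPM SEC61G lay above SEC61B in every treated library, and in DMSO libraries only in replicate 2. The TPM ratios depend on the gene lengths the authors used, while their shift between groups does not.

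**Figure D2:**
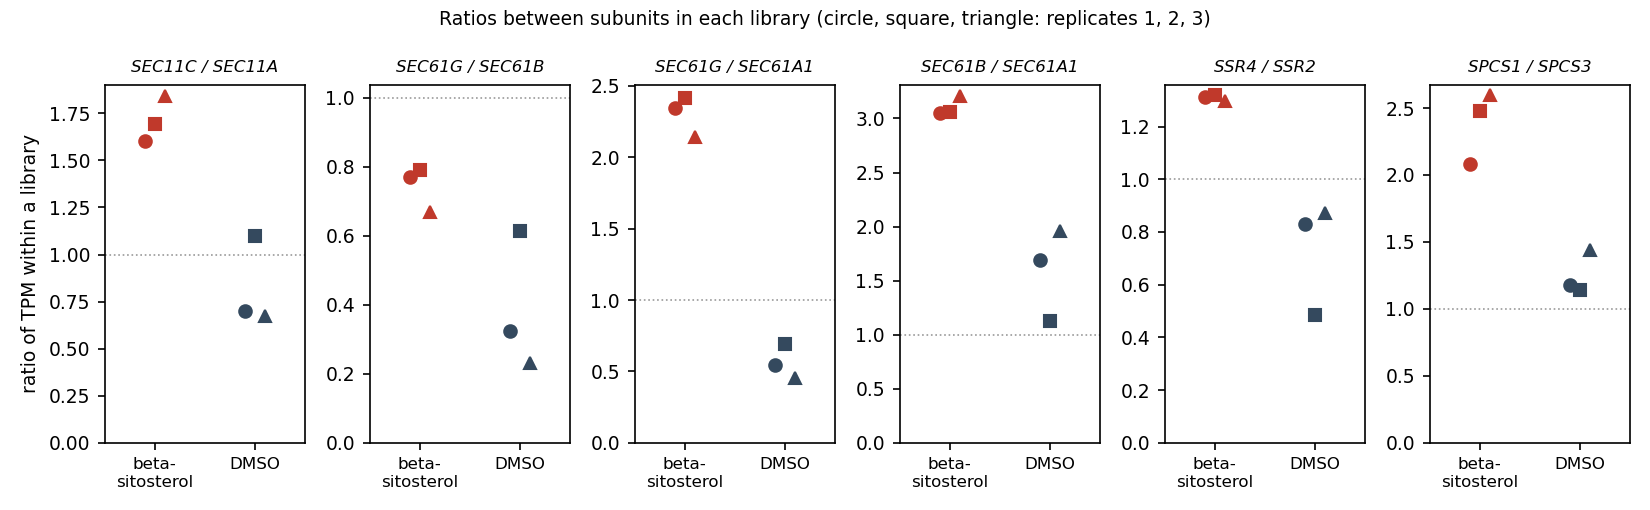
Ratio of the TPM of 2 subunits within each library, with beta-sitosterol (red) left of DMSO (dark blue) in each panel, 1 point per library and a dotted line at a ratio of 1. In all 6 panels the treated libraries lie above the DMSO libraries. Each pair sets the gene with the larger log2 fold change on counts over the other, so this shared direction follows from the choice. For SEC61G over SEC61A1 the treated libraries lie above 1 and the DMSO libraries below it, which depends on the gene lengths the authors used.

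TRAP has 4 subunits, of which SSR2 and SSR4 are considered here and SSR1 and SSR3 served as the rest of the complex. SSR4 (ENSG00000180879, chromosome X, 153794159 to 153798499) had 214, 217 and 222 CPM in treated libraries, against 108, 64.5 and 128 CPM in DMSO libraries. The groups did not overlap, and the log2 fold change of 1.12 ± 0.23 (SE), or 2.17-fold, was called. Without DMSO replicate 2, its lowest library, the change was 0.88 ± 0.09 and still called. SSR2 (ENSG00000163479, chromosome 1, 156009048 to 156020951) had 270.5, 274 and 284 CPM in treated libraries, against 216, 221 and 244 CPM in DMSO libraries. Its groups did not overlap, yet the change was small, 0.28 ± 0.11, and not called. It was called without DMSO replicate 2 (0.26) or without DMSO replicate 3 (0.38). SSR4 had 1.31, 1.32 and 1.30 times the TPM of SSR2 in treated libraries, against 0.83, 0.485 and 0.87 times in DMSO libraries.

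SSR1 and SSR3, picked as the partners of SSR2 and SSR4 after their values were seen, were not called. SSR1 averaged 107.7 ± 3.74 CPM in treated and 90.2 ± 21.9 CPM in DMSO cells (log2 fold change 0.26 ± 0.18, edgeR adjusted p = 0.277). SSR3 averaged 108 ± 1.797 CPM in treated and 86.6 ± 8.43 CPM in DMSO cells (0.32 ± 0.12, edgeR adjusted p = 0.0578). Leaving out DMSO replicate 2 took the adjusted p of SSR1 to 0.00529, and leaving out DMSO replicate 1, 2 or 3 took that of SSR3 to 0.0401, 0.0252 or 0.0491 (edgeR).

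**Figure D3:**
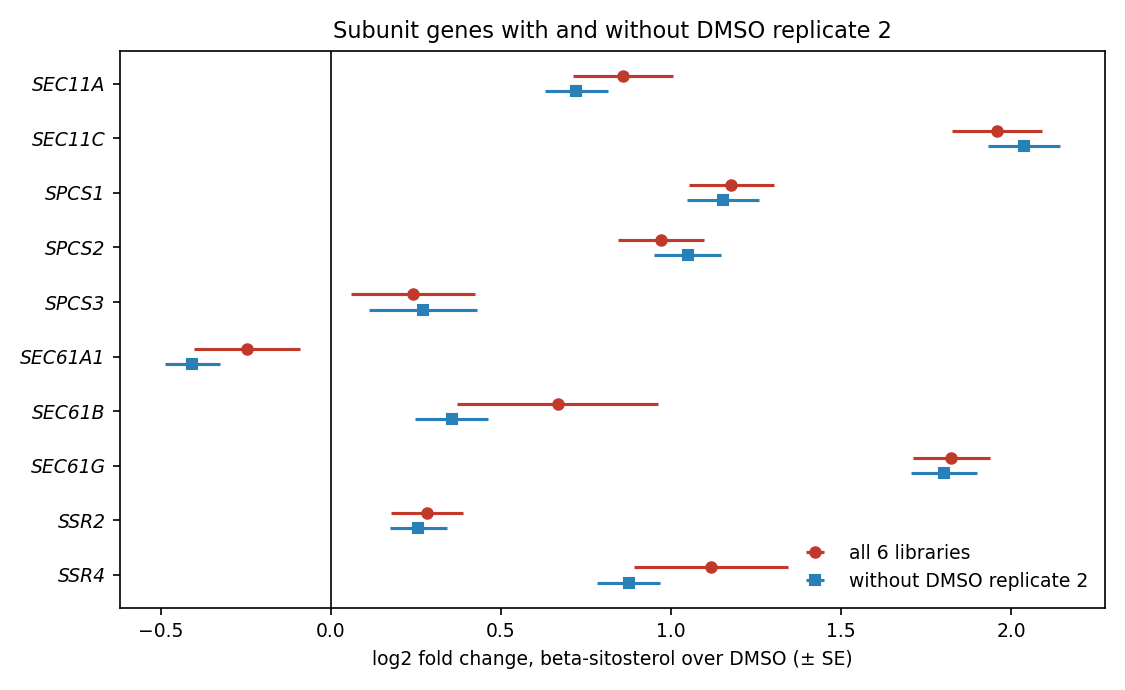
Log2 fold change of beta-sitosterol over DMSO with its standard error for each gene, from the edgeR fit of all 6 libraries (red circles) and from the fit without DMSO replicate 2 (blue squares). SEC11C and SEC61G lie near 2 in both, SEC61B and SSR4 lie lower without that library, and SEC61A1 lies at -0.245 with all libraries and at -0.41 without it.

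Across the 10 genes the order of levels per length, in the authors' deposited TPM, changed in part. The listed TPM of all genes summed to different totals in the DMSO libraries, the lowest in replicate 2, and this adds to the TPM spread of that group. The ranks also depend on the gene lengths the authors used. In mean CPM, SSR2 at 276 and SEC61A1 at 239.9 lay above SEC61B at 100.9 in treated cells. SEC61B had the highest mean TPM in both groups, 213.5 ± 9.91 in treated and 175 ± 100.1 in DMSO cells (SD, n = 3 each). SEC61A1, at 102.6 ± 40.8 TPM in DMSO cells, lay below SEC61B in each of the 3 DMSO libraries. SEC61G ranked 2 in treated cells at 158 ± 7.21 TPM and 3 in DMSO cells at 54.6 ± 14.3 TPM. SEC11C ranked 6 in treated cells at 64.2 ± 3.33 TPM and 10, the lowest, in DMSO cells at 19.8 ± 3.37 TPM. SPCS3 was lowest in treated cells at 29.4 ± 4.78 TPM. SPCS1, SEC61A1, SSR4 and SEC11C were neighbours in treated cells, at 69.4, 68.8, 67.6 and 64.2 TPM, and the first 3 of them lay within their spread of each other.

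The treated libraries resembled each other more than the DMSO libraries did for all 10 genes. The coefficient of variation ran from 1.8% for SSR4 to 14.7% for SPCS3 in treated cells, and from 6.3% for SEC61G to 43.2% for SEC61B in DMSO cells. DMSO replicate 2 was the lowest of the 6 libraries for SEC11A, SEC61A1, SEC61B and SSR4, and the highest DMSO library for SEC11C and SPCS2. Its place thus differed from gene to gene. Counts per gene and library ran from 1052 to 11359, so counting error alone was at most 3.08% (SD).

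Gene length moved with the contrast over the whole table, so it is set beside these genes. Tested genes were split into 5 length bins of equal size, bin 1 the shortest, with lengths taken from count over TPM. The median log2 fold change was 0.19 in bin 1 and -0.27 in bin 5. SEC61B lay at the 4.3rd and SEC61G at the 14.7th percentile of length, both in bin 1. SEC11C, SPCS1, SPCS2 and SPCS3 lay in bin 2, SEC11A, SEC61A1 and SSR4 in bin 3, and SSR2 in bin 4. With the length trend removed, SEC61G changed by 1.66, SEC11C by 1.905 and SEC61B by 0.39 on the log2 scale, and 7 of the 10 genes were called higher, SSR2 being added, against 19.9% of genes tested. SPCS3 and SPCS2, which are of similar length by this measure, then stood at 0.196 and 0.94. The part of length in these changes was not tested beyond this.

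Some of these rows share sequence or position with other genes, and strand use in the counting is not given in the sources used here. SPCS1 overlaps NEK4, and 68.0% of the words of 50 bases in its annotated coding transcripts (GENCODE v29) occur in transcripts of other genes, mostly NEK4. NEK4 had 34.4, 37.4 and 35.4 CPM in treated and 35.96, 38.7 and 34.4 CPM in DMSO libraries, a change of -0.025 ± 0.12 (edgeR adjusted p = 0.88). SSR4 overlaps IDH3G, which changed by -0.21 ± 0.15 (edgeR adjusted p = 0.296). SEC61A1 overlaps RUVBL1, which had 245, 265 and 272 CPM in treated and 229, 201 and 240 CPM in DMSO libraries. RUVBL1 changed by 0.22 ± 0.115 (edgeR adjusted p = 0.153). The share of such words was 16.5% for SPCS2, because of a pseudogene listed at 0 counts, 13.1% for SSR4 and at most 5.8% for each of the other 7 genes.

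Other genes of ER import were set beside these 10. Their lists were chosen with earlier results of these data known, so the shares below are a description. The 7 lists held 59 genes, of which 55 were tested. Of these 17 were called higher and 4 lower, 30.9% and 7.3%, against 19.0% and 21.8% of all genes tested (edgeR), and their median log2 fold change was 0.20, against -0.04. GET1, GET3 and EMC6 were listed at 0 in every library, and nothing is said of their expression. Counts of calls moved with single libraries, here and over all genes. Without DMSO replicate 2, 26 of these genes were called higher and 10 lower, where 26.4% and 30.3% of genes tested were. Calls over all genes then numbered 6640, against 4697 with that library. Without treated replicate 1, 2 or 3, 12 of these genes were higher and 2 lower each time, and calls over all genes numbered 3127, 3094 and 3161. The share of calls over all genes that were higher was 46.5% here and 24.3% on log2(TPM + 1), where the median of all genes lay at -0.19 and 4 of these genes were higher and 2 lower.

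Around the channel, 2 of 9 genes rose and 1 fell, 22.2% and 11.1%, against 19.0% and 21.8% of all genes tested. SEC61A2, the alternative pore subunit, rose to 15.97 ± 1.27 CPM in treated cells, against 6.49 ± 1.36 CPM in DMSO cells (log2 fold change 1.30 ± 0.18, edgeR adjusted p = 0.00105). Its TPM was 0.053, 0.052 and 0.044 of that of SEC61A1 in treated libraries and 0.019, 0.023 and 0.012 of it in DMSO libraries, so SEC61A1 had the higher TPM in all 6 libraries. DNAJC1, an ER membrane co-chaperone, also rose (0.93 ± 0.18, edgeR adjusted p = 0.00395). TRAM2, a relative of the translocating chain-associated membrane protein, fell (-0.73 ± 0.15, edgeR adjusted p = 0.00589). SEC62, SEC63, TRAM1 and the ER chaperone gene HSPA5 were not called (edgeR adjusted p from 0.0669 to 0.71). Without DMSO replicate 2, SEC62 and SEC63 were called higher and TRAM1 lower (edgeR adjusted p = 0.0352, 0.000409 and 0.0339).

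The signal recognition particle brings ribosomes with a signal peptide to the ER, and its receptor holds them there. Of 8 tested genes 2 rose and 0 fell, where 19.0% of all genes tested were called higher and 21.8% lower. SRPRB, the membrane-anchored receptor subunit, had 114.6 ± 6.95 CPM in treated and 57.8 ± 9.54 CPM in DMSO cells (log2 fold change 0.99 ± 0.15, edgeR adjusted p = 0.00136). SRP14 passed narrowly (0.58 ± 0.20, edgeR adjusted p = 0.0485) and was not called without any 1 treated library, or without DMSO replicate 1 or 3 (edgeR adjusted p from 0.0975 to 0.165). SRPRA, the partner of SRPRB, stood at -0.27 ± 0.12 (edgeR adjusted p = 0.0906). Without DMSO replicate 2, 3 genes of this list were called higher and 1 lower, where 26.4% and 30.3% of genes tested were. SRP54, which binds the signal peptide, was then added at 0.45 and SRPRA at -0.215 (edgeR adjusted p = 0.00227 and 0.0478). SRP14 also missed the threshold with library totals and with the length trend removed (edgeR adjusted p = 0.0601 and 0.135).

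Oligosaccharyltransferase adds N-glycans as chains leave the channel. Of 12 tested genes 4 rose and 2 fell, 33.3% and 16.7%, against 19.0% and 21.8% of all genes tested. DAD1, a small subunit, rose to 204.5 ± 7.56 CPM, against 75.04 ± 10.2 CPM in DMSO cells (log2 fold change 1.45 ± 0.13, edgeR adjusted p = 1.93e-04). OSTC, which links the enzyme to the channel, rose to 127.5 ± 6.02 CPM, against 47.96 ± 15.3 CPM (1.41 ± 0.22, edgeR adjusted p = 0.0016). TMEM258 and KRTCAP2, further small subunits, rose by 1.09 ± 0.35 and 0.52 ± 0.15 (edgeR adjusted p = 0.0379 and 0.0239). RPN2, a large subunit, and MLEC, which binds glycans in the ER, fell by 0.34 ± 0.11 and 0.37 ± 0.12 on the log2 scale (edgeR adjusted p = 0.0316 and 0.0366). OST4, RPN1, DDOST and MAGT1 were not called (0.14, 0.17, 0.25 and 0.20, edgeR adjusted p from 0.207 to 0.47). The catalytic subunits STT3A and STT3B were not called either (0.23 and -0.15, edgeR adjusted p = 0.128 and 0.359). STT3A was called higher without DMSO replicate 2 (0.27, edgeR adjusted p = 0.0129). Without that library TMEM258 rose by 0.72 (edgeR adjusted p = 2.37e-05). TMEM258, KRTCAP2, RPN2 and MLEC each missed the threshold without any 1 treated library. Of these, TMEM258 and MLEC also missed it without DMSO replicate 1, and RPN2 and MLEC without DMSO replicate 3 (edgeR adjusted p from 0.0544 to 0.145 over all these cases).

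The ER membrane protein complex and the multipass translocon insert membrane spans. Of 9 tested genes of the ER membrane protein complex 3 rose and 0 fell (33.3% and 0.0%). Of all genes tested, 19.0% were called higher and 21.8% lower. EMC7 rose, as did EMC3 of the insertase core, by 1.26 ± 0.11 and 1.15 ± 0.13 (edgeR adjusted p = 1.67e-04 and 4.05e-04), and EMC9 by 0.76 ± 0.26 (edgeR adjusted p = 0.0464). Of 8 multipass translocon genes 4 rose and 0 fell: WDR83OS by 1.24 ± 0.38, TMEM147 by 0.97 ± 0.24, TMCO1 by 0.90 ± 0.12 and CCDC47 by 0.81 ± 0.11 (edgeR adjusted p = 0.0292, 0.0135, 7.88e-04 and 9.57e-04). NOMO1, NOMO2 and NOMO3 are near-identical copies, so their separate counts are uncertain, and none was called. Without DMSO replicate 2, MMGT1 and NOMO1 were also called higher (0.65 and 0.22) and EMC8, EMC10 and NCLN lower (-0.34, -0.44 and -0.35), and EMC9 rose by 0.49 (edgeR adjusted p from 0.000951 to 0.047). EMC9 and WDR83OS were not called without any 1 treated library or without DMSO replicate 1 (edgeR adjusted p from 0.0675 to 0.123). EMC9 also missed the threshold with the length trend removed (edgeR adjusted p = 0.0656).

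In the pathway for tail-anchored proteins 0 of 5 tested genes rose and 1 fell. Among all genes tested 19.0% were called higher and 21.8% lower, so this list did not stand out for lower calls. The gene that fell was UBL4A, part of the BAG6 complex. It had 57.3 ± 2.40 CPM in treated and 105.2 ± 26.5 CPM in DMSO cells (log2 fold change -0.88 ± 0.18, edgeR adjusted p = 0.00575). Signal peptide peptidase acts after signal peptidase on the leftover peptides. Its gene HM13 rose to 444 ± 10.7 CPM, against 295 ± 26.6 CPM in DMSO cells (0.59 ± 0.11, edgeR adjusted p = 0.00388). Its relative SPPL2A, which trims the invariant chain in B cells, rose by 0.94 ± 0.19 (edgeR adjusted p = 0.00494). Of the 4 genes of this family 2 were called higher and 0 lower, where 19.0% and 21.8% of all genes tested were. Without DMSO replicate 2 SPPL3 was called lower (-0.34, edgeR adjusted p = 0.0225), where 30.3% of genes tested were. Without that library CAMLG, an ER receptor for tail-anchored proteins, was called higher (0.27, edgeR adjusted p = 0.0375), where 26.4% of genes tested were.

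**Figure D4:**
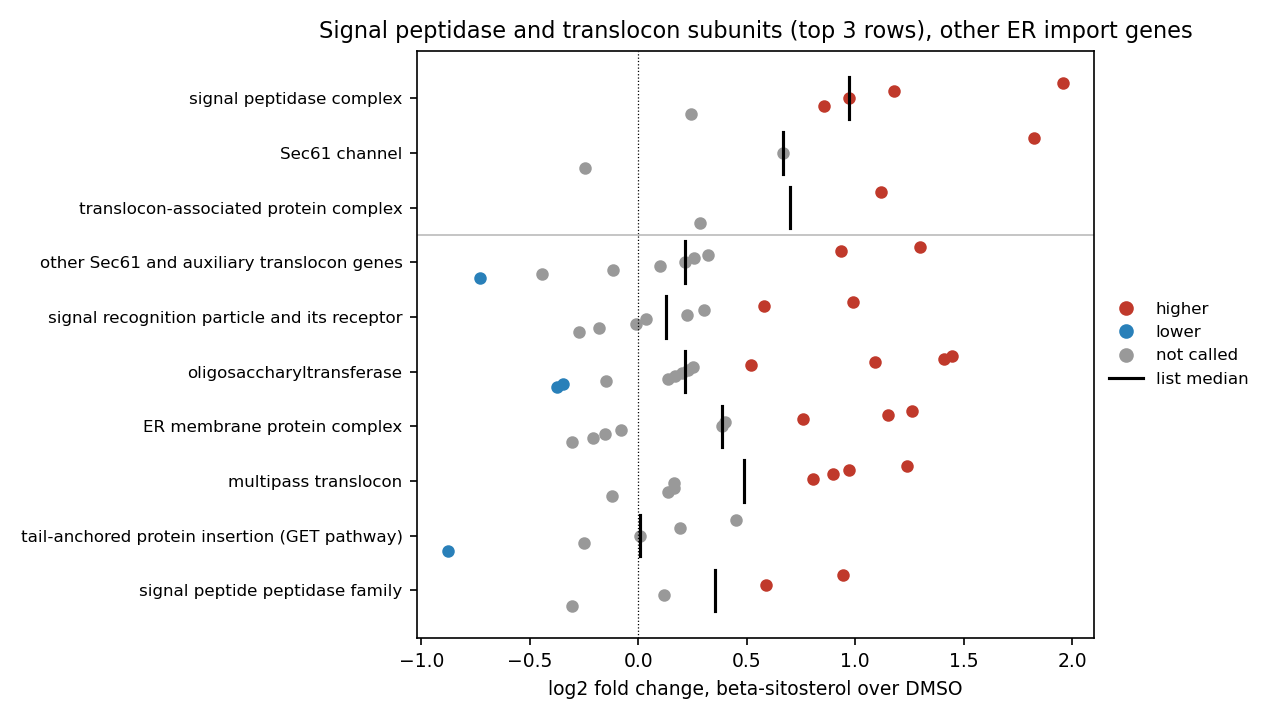
Log2 fold change of beta-sitosterol over DMSO for each tested gene, 1 row per list, with the signal peptidase, Sec61 and TRAP subunits in the top 3 rows; red points were called higher, blue lower and grey not called, and black bars are list medians. Medians of the top 3 rows are 0.97, 0.67 and 0.70, and those of the other lists run from 0.01 to 0.49.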

How the data were processed

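RNA of 6 SU-DHL-8 libraries, 3 per group, was extracted with TRIzol and made into Illumina libraries, per the labels' protocols. The authors deposited 2 tables, raw whole-number counts and TPM for each gene, per the file headers. fastp 0.23.2, STAR 2.7.10, featureCounts 2.0.1, StringTie 2.2.1 and GRCh38 are named in the submitters' processing notes without roles; the sources used here do not give the annotation or how strand and multi-mapping reads were handled. Listed TPM summed to 57.0 to 57.8% of the full TPM total in treated and 39.5 to 69.2% in DMSO libraries, so TPM served for ratios within a library and for levels per length.

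The 61 rows repeating a symbol were dropped. Counts were fitted with edgeR 4.0.16 in R 4.3.3 (TMM, filterByExpr, quasi-likelihood F test, treatment as the only term, two-sided, threshold 0.05). Each standard error was obtained by dividing the size of a change by the root of its F statistic. Alternatives were RLE factors, library totals, 2 other filters, DESeq2 1.42.0, limma 3.58.1 (voom, and TPM on a log2 scale with 1 or 0.1 added), a replicate block, a length trend removed (lowess, span 0.3), and each library left out.

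The subunit genes and lists were chosen with earlier results of these data known. Named genes are the 10 subunit genes, the called genes of each other list, the 5 nearest in profile, and some uncalled list members and overlapping genes picked once their values were known. Gene positions come from RefSeq on GRCh38.p14, matched by symbol.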

Additional observations from a re-analysis of the deposited data

How the results depend on the processing

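SEC11A, SEC11C, SPCS1, SPCS2, SEC61G and SSR4 were called higher in every setting run on counts, and 6 to 9 of the 10 genes were called when 1 library was left out. On log2(TPM + 1) and log2(TPM + 0.1), SEC11A and SSR4 were not called, 4 genes were, and SPCS3 stood at -0.0034 and -0.00262, below 0. The median of all genes was -0.19 on log2(TPM + 1). Relative to it SEC11A stood at 0.785, SSR4 at 1.09 and SPCS3 at 0.19, against 0.86, 1.12 and 0.24 on counts. The values on counts are not relative to the median of all genes there, which was -0.04. SEC61B was added with no filter, SSR2 with DESeq2 or the length trend removed. Over all genes, calls numbered 4697, against 2939 and 2935 on those TPM scales and 3094 to 6640 with 1 library left out. Other ER import genes had 21 calls, 6 and 6 on the TPM scales and 14 to 36 with 1 library left out. The cause was not tested. Deviations of same-numbered libraries from their group means correlated at 0.039, 0.101 and 0.154, so the numbers were not taken to pair them. The replicate block gave 4743 calls over all genes, 7 among the 10, where SEC61B was added at a log2 fold change of 0.77, and 21 among the others, RPN2 and MLEC missing the threshold, as they also did with RLE size factors and with no filter (edgeR adjusted p from 0.0533 to 0.0819). Each subunit gene had 1052 or more counts per library, a counting SD of at most 3.08%.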

Other observations

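Among 8734 other genes averaging 5 CPM or more, those whose centred log2 CPM profile over the 6 libraries lay nearest to the mean profile of the 10 subunit genes were PLRG1, PHYH, RPL6, HLA-DMA and RAE1. Their root mean square differences from it were 0.033, 0.041, 0.044, 0.048 and 0.053 log2 units. PLRG1, a splicing factor gene, averaged 143.6 CPM in treated and 77.96 CPM in DMSO cells, and HLA-DMA, which helps to load peptides on MHC class II, 127 and 67.6 CPM. Of the 10 genes themselves SEC11A lay nearest to their mean profile, at 0.071, and SEC61A1 farthest, at 0.577.

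The pseudogene SSR4P1 was listed with 117, 95 and 99 counts in treated and 177, 141 and 219 counts in DMSO libraries, while SSR4 itself had 6312, 5746 and 6105 counts in treated and 3689, 2056 and 4444 counts in DMSO libraries.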
